A study of Homo sapiens with 2 samples.

Results

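The genes described here are 42 genes of histone methylation, and NeuroD1 peaks were counted at each of them in IMR-32 cells. They comprised 17 lysine methyltransferases that write the marks (with their relative KMT2E), 15 lysine demethylases that erase the marks and 10 Polycomb subunits. They were taken by name out of 20037 protein-coding genes of RefSeq. A gene was counted as having a peak when a called peak overlapped the gene or lay up to 3 kb from either of its ends. By this rule 31 of the 6183 peaks in the list lay at a member gene. IMR-32 is an established neuroblastoma cell line with amplified MYCN, and the labelled genotype is WT with no treatment. The series holds 1 ChIP library labelled with a NeuroD1 antibody and 1 input library. Values below come from the ChIP peak list alone, and the input was not analysed here. With 1 library there was no replicate and no test between conditions, so every interval below covers counting error only. The label names a NeuroD1 antibody, but the supplementary ChIP-seq protocol of the study describes incubation with an antibody to H3K27Ac, and the list is described here under its label. The study also reports NeuroD1 motifs as enriched at its ChIP-seq sites, and it mapped H3K27Ac separately by CUT&Tag.

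Histones are methylated on lysines by enzymes that mostly carry a SET domain. Many of these lysines are demethylated by the LSD-type (KDM1) and JmjC-type (KDM2 to KDM7) enzymes. Methylation of H3K4 marks promoters and enhancers in use, methylation of H3K36 and H3K79 accompanies transcribed gene bodies, and methylation of H3K9 and H3K27 is associated with silent chromatin. Polycomb repressive complex PRC2 methylates H3K27, and PRC1 binds this mark through its CBX subunits and ubiquitinates histone H2A. NeuroD1 is a basic helix-loop-helix transcription factor of neurons and endocrine cells that pairs with E proteins and binds E-boxes (CANNTG), with a preference for CAGATG.

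A peak is a stretch of DNA where the ChIP reads exceed the local background. Its fold enrichment is the ChIP pileup at the summit over that background, with 1 added to each, and its −log10 q expresses the significance given by the peak caller after correction. The number of ChIP reads at each summit was worked back from these deposited values. All peaks of the list had a median fold enrichment of 6.79 from a median of 17 ChIP reads at the summit, and the total depth of the library is unknown. The list covers 23 chromosomes. As a check of the labelled cell type, the adrenergic neuroblastoma transcription factor genes PHOX2A and TBX2 had a peak, whereas HAND2, GATA3 and ISL1 had none within 3 kb. A peak list holds no expression, so this says nothing about whether these genes were expressed.

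NeuroD1 peaks were found at 19 of the 42 histone methylation genes (45.2%, 95% exact Clopper-Pearson interval 29.8% to 61.3%). Among all protein-coding genes the share was 21.4%. The genes with a peak were KMT2A, KMT2B, KMT2C, KMT2D, KMT2E, SETD1B, SETD2, NSD1 and DOT1L among the writers, KDM2B, KDM3A, KDM3B, KDM4B, KDM5A and KDM6B among the erasers, and EZH2, JARID2, CBX2 and CBX8 among the Polycomb genes. The other 23 had none. With a fold enrichment of at least 5, 18 members kept a peak against 19.7% of all protein-coding genes, and with a −log10 q of at least 5, 15 did against 17.2%. By class, 9 of 17 writers (52.9%, interval 27.8% to 77.0%), 6 of 15 erasers (40%, 16.3% to 67.7%) and 4 of 10 Polycomb genes (40%, 12.2% to 73.8%) had a peak. The intervals of the 3 classes overlapped widely, so no difference among them could be resolved with these numbers of genes.

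Long genes had peaks more often, and the member genes are long. Their median length was 66.3 kb, against 24.1 kb for all protein-coding genes. The share of protein-coding genes with a peak was 13.3% among genes of 3.16 to 5.62 kb and 39.8% among genes of 316 to 562 kb. The comparison was therefore made with genes within 1.2 times the length of each member. Among these, 25.3% had a peak on average, which corresponds to 10.6 genes out of 42 where 19 were observed. The share among genes of like length was 25.5% for the writers, 27.4% for the erasers and 21.9% for the Polycomb genes. Of the 3 classes, the writers had an interval above the share among genes of like length. It no longer lay above that share with a −log10 q of at least 5 (14.2% against 20.4%), with the gene body alone (10.3% against 20.3%), within 1 kb (23% against 24.5%), within 10 kb (27.8% against 28.6%) or with each peak given to its nearest gene (14.2% against 19.9%), each given as the low end of the interval against that share. For all 42 genes the low end fell below the share with the gene body alone (17.6% against 20.3%). Members with a peak had a median length of 84.3 kb, and those without had 57.0 kb.

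Promoter base composition was compared as well. The promoters of member genes, taken from 250 bp before to 50 bp after the outermost listed start, had a median GC content of 69.0%, against 62.7% over 15842 protein-coding genes. Promoters overlapped by a peak had a median GC content of 67.7% over all genes, and those without a peak had 61.7%. RefSeq start sites were listed for 37 of the members, of which 15 had a peak (40.5%, 24.8% to 57.9%), and of the other 5 members 4 had a peak. For these 37 members the share was 25.8% among genes of like length, which already lies inside that interval. Among genes with a listed start it was 26.1% matched on length alone and 30% matched also on promoter GC content within 5 percentage points. The genes matched on both numbered from 4 to 593 per member, and each member counted equally. Expression was not measured in these files, and its part in the result was not tested.

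The methyltransferases of H3K4, counted together with their SET-domain relative KMT2E, had the most members with a peak. These were 6 of 7, KMT2E among them, where genes of like length would give 1.77. The count was 4 with a −log10 q of at least 5 (1.45 from genes of like length), 3 with each peak given to its nearest gene (1.38) and 2 in the gene body alone (1.41). The members were divided by the lysine they act on after their values had been seen, so this count is a description. The peak at KMT2C, which monomethylates H3K4 at enhancers, was the highest of any writer. It lay on chr7:152436602-152436981 with a fold enrichment of 25 (18.8 to 32.8 from the counting interval of the reads) and a −log10 q of 58.6. There were 51 ChIP reads at the summit over a background of 1.04, and it ranked 44 of 6183 by fold enrichment. The summit lay 804 bp upstream of the KMT2C start. The same peak overlapped the pseudogene FABP5P3, which lies beside KMT2C. KMT2D, the paralogue of KMT2C with the same role at enhancers, had a peak on chr12:49060707-49060966 whose summit lay 53 bp upstream of its start. The fold enrichment was 11.4 (7.86 to 16.0) from 31 reads, and the rank was 611. The intervals of KMT2C and KMT2D did not overlap.

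KMT2A, the H3K4 methyltransferase rearranged in acute leukaemias, had a peak on chr11:118436105-118436346, with its summit 289 bp upstream of the start. It had a fold enrichment of 8.68 (5.26 to 13.6), 17 reads and a rank of 1495. At KMT2E, a SET-domain relative of these enzymes, weak peaks lay on chr7:105012763-105012911 (5.31-fold) and chr7:105014034-105014201 (5.08-fold). Each KMT2E summit had 10 reads, the ranks were 5096 and 5429, the summits lay 1330 bp and 99 bp upstream of the start, and both peaks overlapped the antisense transcript KMT2E-AS1. SETD1B, which adds H3K4 methylation at promoters, had a peak of 5.76-fold inside the gene from 13 reads. The peak counted for KMT2B (6.27-fold, 12 reads) lay 2192 bp beyond the end of the gene and overlapped IGFLR1. It was the member peak nearest to the 3 kb limit on the inside. Of the members without a peak, EZH1 had the nearest one, 20.2 kb away with a fold enrichment of 5.40. Within 10 kb there were 35 peaks at members instead of 31, all at the same 19 genes. SETD1A, the paralogue of SETD1B, had none, and the nearest peak lay 82.3 kb away.

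Among the writers of H3K36, SETD2 and NSD1 had a peak and NSD2 and NSD3 had none. Genes of like length would give 1.17 of these 4. SETD2, which trimethylates H3K36 behind elongating polymerase, had a 6.27-fold peak (12 reads) with its summit 122 bp downstream of a listed start. The NSD1 peak, of 5.79-fold from 11 reads, lay deep in the gene, 110641 bp from the nearest listed start. Both were below the median of all peaks. DOT1L, the methyltransferase of H3K79, had a peak on chr19:2163681-2164038 with a fold enrichment of 11.6 (7.51 to 17.1), 23 reads and a rank of 556. Its summit lay 117 bp from an end of DOT1L, and the peak also overlapped AP3D1.

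No peak was called within 3 kb of any of the 5 methyltransferases of H3K9. These were EHMT1 and EHMT2, which form the G9a/GLP complex, and SETDB1, SUV39H1 and SUV39H2, which trimethylate H3K9 in heterochromatin. Genes of like length would give 1.15 of 5, and 0 of 5 genes allows a share of up to 52.2% (exact 95% interval), so no difference could be resolved. The nearest peaks lay 49.8 kb from SETDB1, 67.1 kb from EHMT1 and 70.3 kb from SUV39H2. EHMT2 and SUV39H1 lay farther, and on chromosome X, which carries SUV39H1, only 2.71% of protein-coding genes had a peak.

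JARID2 is 276 kb long, and 34.2% of genes of like length had a peak. JARID2 carried 5 peaks, the most of any member. It encodes a JmjC-domain protein without demethylase activity that helps to bring PRC2 to chromatin. The strongest, on chr6:15399951-15400295, had a fold enrichment of 10.7 (7.10 to 15.7), 25 reads and a rank of 724. The peak on chr6:15392256-15392475 had 8.77-fold (21 reads, rank 1476) and that on chr6:15343537-15343845 had 5.79-fold (11 reads, rank 4499). These 3 peaks lay 94801 to 151229 bp from the nearest listed start. The remaining peaks lay at listed starts, on chr6:15245676-15246016 (7.21-fold, 16 reads, rank 2777, summit 256 bp upstream) and chr6:15248296-15248766 (7.30-fold, 16 reads, rank 2529, summit 459 bp upstream). The peak on chr6:15248296-15248766 also overlapped the transcript JARID2-AS1. The counting intervals of all 5 peaks overlapped.

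The catalytic subunit of PRC2 in dividing cells, EZH2, had a single peak of 4.58-fold from 13 reads, with its summit 104 bp upstream of the start and a background of 2.0. It ranked 5734 of 6183. EZH1, EED and SUZ12, the paralogue of EZH2 and the core partners that PRC2 needs, had none. With JARID2, 2 of the 5 PRC2 genes had a peak, where genes of like length would give 1.33. In PRC1, the chromodomain genes CBX2 and CBX8 had peaks, while RING1, RNF2 and BMI1, which form the ubiquitin ligase core, had none. Genes of like length would give 0.864 of these 5 PRC1 genes. CBX8 had peaks on chr17:79797105-79797379 (8.82-fold, 6.01 to 12.5, 29 reads, rank 1466) and chr17:79797478-79797736 (4.17-fold, 2.49 to 6.62, 16 reads, rank 5937), both beside the gene. The CBX2 peak (6.33-fold, 21 reads) lay inside the gene, 628 bp from one end. CBX2 and CBX8 are neighbours on chromosome 17, where 33.3% of protein-coding genes had a peak and the median background of the peaks was 2.37, against 1.31 over the whole list.

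KDM6B carried the highest peak of all 42 genes. It encodes JMJD3, which removes methyl groups from H3K27 and so acts against PRC2. Its peak on chr17:7836821-7837161 had a fold enrichment of 29.9 (23.6 to 37.4), the −log10 q was 88.3, and 74 ChIP reads stood over a background of 1.46. It ranked 24 of 6183 by fold enrichment, and its summit lay 2757 bp downstream of the nearest listed start. The weaker KDM6B peaks, on chr17:7835570-7835735 (6.57-fold, 14 reads, rank 3507) and chr17:7835881-7836027 (6.36-fold, 14 reads, rank 3691), lay between the start and the strong peak. All 3 also overlapped the gene model LOC124904106. The intervals of the strong KDM6B peak and of the KMT2C peak overlapped. KDM6A, the paralogue of KDM6B, lies on chromosome X and had no peak.

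Of the erasers of H3K4, KDM5A had peaks and KDM1A, KDM1B, KDM5B and KDM5C had none. Genes of like length would give 0.753 of the 3 KDM5 genes and 0.493 of the 2 KDM1 genes. KDM5A, a demethylase of H3K4 trimethylation, had a peak in the gene on chr12:332687-332905 (9.98-fold, 6.70 to 14.4, 27 reads, rank 948) and a weaker one at its start on chr12:389228-389540 (5.98-fold, 13 reads, rank 4269). The start peak had its summit 95 bp upstream and also overlapped CCDC77. KDM2B, an H3K36 demethylase that recruits PRC1 to CpG islands, had 3 peaks. The strongest, on chr12:121467275-121467705, had 9.31-fold (5.86 to 14.1), 20 reads and a rank of 1205, with its summit 91 bp upstream of an internal start. The others, on chr12:121449084-121449241 (13 reads, rank 5734) and chr12:121536366-121536522 (10 reads, rank 5733), were both at 4.58-fold. Its paralogue KDM2A had none.

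Both KDM3 genes, whose products remove methyl groups from H3K9, had a peak at a start. Genes of like length would give 0.492 of these 2 with a peak anywhere by the rule. The KDM3A peak on chr2:86440966-86441320 had 6.87-fold (4.32 to 10.4), 20 reads and a rank of 3009, with its summit 280 bp upstream of an internal start. The KDM3B peak on chr5:138352534-138352752 had 7.23-fold (4.18 to 11.8), 14 reads and a rank of 2575, with its summit 64 bp upstream. These values did not differ beyond counting error. KDM4B, a demethylase of H3K9 and H3K36, had a peak in the gene on chr19:5080473-5080645 (7.23-fold, 14 reads, rank 2575) and one at the start on chr19:4968736-4969125 (4.32-fold, 21 reads, rank 5880). The start peak had more reads and a lower fold enrichment, since its background was 4.0 where that of the other was 1.04. KDM4A, KDM4C and KDM7A had no peak, although KDM4C is the longest of the 42 genes at 455 kb.

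Over all member genes, 7 had 2 or more peaks (16.7%), namely KMT2E, JARID2, CBX8, KDM2B, KDM4B, KDM5A and KDM6B. The share was 4.42% of all protein-coding genes and 5.74% of genes of like length. This comparison has no interval, and the shares were not computed under other settings. With a −log10 q of at least 5, KMT2E, CBX8 and KDM2B no longer had 2 peaks. At a threshold of 5 on fold enrichment, CBX8, KDM2B and KDM4B no longer did. Closely spaced peaks were counted separately, as at CBX8 (chr17:79797105-79797379 and chr17:79797478-79797736), so separate binding sites were not shown. In strength the member peaks were ordinary. Their median fold enrichment was 6.57, with quartiles of 5.77 and 8.80, against 6.79, 5.79 and 8.68 over all peaks. The median summit had 16 reads. By class the median was 6.27 at writers, 6.72 at erasers and 7.21 at Polycomb genes. The peaks of KDM6B and KMT2C were the only ones of the 31 among the first 100 of the list.

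Member peaks lay at starts, inside genes and beside them. Of the 37 members with a listed start, 12 had a summit within 1 kb of one (32.4%, 18.0% to 49.8%), against 15.4% of all protein-coding genes with a listed start. Among the 26 peaks of these members, 13 lay within 1 kb of a start (50%, 29.9% to 70.1%), and the share was 57.5% over all genes. Of all 31 member peaks, 22 overlapped the gene and 9 lay beside it. Another gene lay within 3 kb of 15 of them. A peak overlapped the promoter window at 10 of the 37 members (27.0%), against 12% of all protein-coding promoters. No interval was computed for this share. Neither this comparison nor that of summits within 1 kb was matched on gene length or GC content. The median GC content was 69.0% at member promoters and 62.7% over all. SETD1B, NSD3, DOT1L, CBX2 and CBX8 are not in these counts by start.

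To show what the peaks at starts cover, the upstream bases of member starts that lay inside a called peak were read from the RefSeq promoter table (GRCh38.p14). Only bases outside the annotated gene were taken, which leaves out the peaks at KDM3A and SETD2, whose listed starts lie inside the gene. Such a stretch of at least 20 bases was found at EZH2, JARID2, KDM3B, KDM4B, KDM5A, KMT2A, KMT2D and KMT2E. Shown here are the KMT2D and KDM4B stretches, which hold an E-box, and those of EZH2 and KDM3B, which hold none. All 4 hold the summit of their peak. The KMT2D stretch is chr12:49060795-49060966 and that of EZH2 chr7:148884390-148884541, both on the reverse strand. The KDM4B stretch is chr19:4968863-4969112 and that of KDM3B chr5:138352534-138352684, both on the forward strand. Sequences run 5′ to 3′ along the gene and capitals mark CANNTG.
KMT2D: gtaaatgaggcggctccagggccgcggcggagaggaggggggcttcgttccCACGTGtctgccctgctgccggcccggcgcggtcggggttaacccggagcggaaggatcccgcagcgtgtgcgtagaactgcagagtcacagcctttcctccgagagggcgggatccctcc
KDM4B: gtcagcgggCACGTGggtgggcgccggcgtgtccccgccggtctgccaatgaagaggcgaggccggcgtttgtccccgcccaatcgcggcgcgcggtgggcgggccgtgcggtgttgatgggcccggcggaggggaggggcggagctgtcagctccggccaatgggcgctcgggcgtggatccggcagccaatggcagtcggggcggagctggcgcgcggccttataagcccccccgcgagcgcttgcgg
EZH2: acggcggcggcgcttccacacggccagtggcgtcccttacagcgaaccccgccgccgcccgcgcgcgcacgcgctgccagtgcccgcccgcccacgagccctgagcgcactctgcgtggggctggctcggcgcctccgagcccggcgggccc
KDM3B: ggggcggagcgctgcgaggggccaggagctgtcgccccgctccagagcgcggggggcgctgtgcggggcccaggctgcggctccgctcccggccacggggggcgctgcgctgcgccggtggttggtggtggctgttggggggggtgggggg

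The E-boxes at KMT2D and KDM4B were both CACGTG, the form known to be bound by MYC and MAX family proteins. This motif was added to the search after the sequences had been seen. Over the 8 stretches of members outside the gene, 4 held a CANNTG E-box, 2 held CACGTG, 1 held CAGCTG and none held CAGATG or its reverse complement CATCTG. Over the stretches of all protein-coding genes, 1694 in number and read by the same rule, 38.2% held CANNTG, 7.32% CACGTG, 11.4% CAGCTG and 5.79% CAGATG. Both strands were read, and CANNTG includes the other 3 motifs. CACGTG was found in the 300 bp promoter windows of 2 of 10 members with a peak there (20%) and 6 of 27 without (22.2%). The share was 8.82% over all protein-coding promoters. The covered stretches are GC-rich, with a median GC content of 76.2% at members and 68.8% over all genes.

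In the whole promoter windows of 300 bp, CAGATG was found at 4 of 37 members (10.8%, 3.03% to 25.4%), namely EED, EHMT2, KDM4A and KMT2E. The share was 11.7% over all protein-coding promoters. Of these 4 genes KMT2E alone had a peak at its promoter, and its CAGATG lay outside the bases that the peak covered upstream of the start. Promoters with a peak held CAGATG in 8.48% over all genes (7.26% to 9.82%), and those without in 12.1% (11.6% to 12.7%). Matched on GC content within 2 percentage points, promoters without a peak held it in 8.91%, inside the interval of those with a peak. A match to these letters is a description and not a binding site, and the strong peaks at KDM6B and KMT2C lie outside the windows that were read.

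The other genes of histone methylation, a list of 43 partner subunits and further enzymes, had a peak in 19 cases (44.2%, 29.1% to 60.1%), where genes of like length gave 23.6%. With the gene body alone it was 27.9% (15.3% to 43.7%) against 18.3%, so the interval held that share. The highest by fold enrichment was DPY30 (25.8-fold, 56 reads, rank 41), a core subunit shared by the H3K4 methyltransferase complexes. Its peak lay 427 bp beside the gene and overlapped MEMO1. WDR5, another core subunit of these complexes, followed with 12-fold from 24 reads, and RBBP5, a further core subunit that was named after its value was seen, had 9.22-fold from 46 reads. ASH2L, the last of this core, and MEN1 had none. The next were MTF2, which guides PRC2 to CpG islands (11-fold), PCGF1, a subunit of a variant PRC1 (10.7-fold), and the lysine methyltransferase gene SMYD2 (10-fold).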

How the data were processed

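NeuroD1 ChIP-seq of IMR-32 cells was analysed from the deposited narrowPeak list of 1 ChIP library, while the input was not analysed here. The submitters' processing notes name BWA 0.7.17, MACS2 2.2.7 and build hg38, whereas the deposited peak names carry macs3. The q threshold and the use of the input are not given in the sources used here, and no q above 0.0414 occurs. The fold enrichment deposited by the authors is a ratio of pileups at the summit, and p-value and q-value were deposited on a −log10 scale. The deposited score is 10 times the −log10 q as a whole number. The last deposited column equals the fold enrichment divided by the peak width in all 6183 rows and was not used further.

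ChIP reads and background at each summit were solved from fold enrichment and p-value by the Poisson formula of the MACS peak caller. In 329 peaks the formula had 1 solution, and their pileups were spaced by 0.98, used as the value of 1 read. All 6183 peaks then had a single solution within 0.03 of a whole read. In 983 simulated peaks 100% of the read numbers were recovered. The simulated peaks were made with the same formula, read value and lowest background. This checks the arithmetic only, and not whether the formula holds for these data. Genes are those of RefSeq GRCh38.p14, the same assembly as hg38, and all 42 symbols matched. Strand and starts come from the RefSeq promoter table, which lists 37 of the members. SETD1B, NSD3, DOT1L, CBX2 and CBX8 were missing from it. Intervals are exact Clopper-Pearson for shares and exact Poisson for reads, at 95%. The total depth of the library is unknown.

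The genes and lists were chosen with earlier results of these data known. All 42 genes are accounted for, with full values for the 12 with the highest peak and for those with 2 or more peaks, and the 5 highest of the other list are named. Shares were set beside those of protein-coding genes within 1.2 times the length of each member. There was no replicate, so no test was run. Some genes of the other lists are not reported here. The alternatives were other peak thresholds, distances, length windows and motifs. The E-box share at summits was not run, since no genome sequence was used. Scripts ran in Python 3.11.15 with scipy 1.17.1, pandas 2.3.3, numpy 2.4.6 and, for plots, matplotlib 3.10.9.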

Additional observations from a re-analysis of the deposited data

How the results depend on the processing

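Under all alternatives run, from 31.0% to 45.2% of member genes had a peak, inside the interval of the share, and the shares of writers, erasers and Polycomb genes also stayed inside theirs. With a −log10 q of at least 5, 15 of the 42 genes had a peak, without KMT2E, SETD1B, NSD1 and EZH2, while the share of all protein-coding genes fell to 17.2% and that of genes of like length to 20.3%. With a fold enrichment of at least 5, EZH2 was lost and all protein-coding genes gave 19.7%. With each peak given to its nearest gene, KMT2B, KMT2C, KMT2E and KDM6B were lost. Of the 7 genes of the H3K4 group 3 remained, and all protein-coding genes gave 16.2%. With the gene body alone, 13 members had a peak, of which 2 were H3K4 writers, the other genes of the pathway fell to 27.9%, all protein-coding genes to 16.0% and genes of like length to 20.3%, and the intervals of the members (17.6% to 47.1%) and of the other genes (15.3% to 43.7%) no longer lay above the shares of genes of like length. Within 1 kb, KMT2B was lost and all protein-coding genes gave 20.1%. Within 10 kb the shares were 25.1% for all protein-coding genes and 28.5% for genes of like length. The settings differed in the peaks kept, in the distance allowed or in the gene that a peak was given to.

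The share set beside the members was 21.4% with no regard to length, 22.2% over genes of the same chromosome and 30% over genes of like length and promoter GC content. The last pair, the match of promoters on GC content and the length match over members with a listed start were chosen after seeing the data. An E-box of any form, CANNTG, was present in 59.5% of member promoters. The remaining alternatives changed values by less than their intervals or 1.5 times. The E-box alternatives at summits were not run, for want of a genome. No paired analysis was possible because the series holds a single ChIP library, and for the same reason no replicate could be left out. With 10 to 20 reads at many summits, the counting intervals of most member peaks overlap.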

Other observations

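The peaks at member genes were spread unevenly over the chromosomes. All 4 members on chromosome 12 (KMT2D, SETD1B, KDM2B and KDM5A) had a peak, as did all 3 on chromosome 19 (KMT2B, DOT1L and KDM4B). None of the 5 on chromosome 1 (SETDB1, KDM1A, KDM4A, KDM5B and RNF2) and none of the 3 on chromosome X (SUV39H1, KDM5C and KDM6A) had one. Over all protein-coding genes the share was 33.6% on chromosome 12, 24.7% on chromosome 19, 20.5% on chromosome 1 and 2.71% on chromosome X. The median background of the peaks was 1.61 on chromosome 12 and 1.65 on chromosome 1, and its part in these counts was not tested. These chromosomes were singled out after their values were seen.

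Several paralogue pairs were split, with a peak at one gene and none at the other. This held for KDM6B and KDM6A, KDM2B and KDM2A, SETD1B and SETD1A, EZH2 and EZH1. Both genes had a peak in the pairs KMT2A and KMT2B, KMT2C and KMT2D, and KDM3A and KDM3B. Neither gene did for EHMT1 and EHMT2, SUV39H1 and SUV39H2, KDM1A and KDM1B, and RING1 and RNF2. With a −log10 q of at least 5, SETD1B and EZH2 had no peak. With each peak given to its nearest gene, KDM6B, KMT2B and KMT2C had none. KDM6A and SUV39H1 lie on chromosome X, where 2.71% of protein-coding genes had a peak. The pairs were listed after the values were seen, and no test was made of them. The number of split pairs to expect was not computed.

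Heterochromatin protein genes were also among the other genes of the pathway, and were named after their values were seen. CBX5, which encodes HP1 alpha, a reader of H3K9 methylation, had 4 peaks from 4.25-fold to 8.68-fold, and CBX3, for HP1 gamma, had 4.66-fold and 7.05-fold. CBX1, for HP1 beta, had none within 3 kb, and its nearest peak lay 5914 bp away. CBX5 peaks beside the gene overlapped HNRNPA1, and the CBX3 peaks lay within 3 kb of HNRNPA2B1.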
